A study of Homo sapiens with 6 samples.

Results

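The 10 genes described here encode the regulators that control the programme of motile cilium formation in vertebrate cells, together with relatives from the same families. They are the forkhead factor FOXJ1, 5 factors of the RFX family (RFX1, RFX2, RFX3, RFX5 and RFX7), the coregulator MCIDAS, the transcription factor TP73, the factor MYB and the cyclin-like protein CCNO. They were selected by gene symbol, 10 of the 58051 genes in the count table, with earlier results of the same libraries known, and all 10 passed the filter on low counts. Their values are therefore a description of these libraries and not independent evidence for a change.

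Transcripts were measured in HEK293T, an established line of human embryonic kidney origin with the SV40 T antigen, by sequencing of poly(A)-selected RNA. The control group was transiently transfected with the empty plasmid pcDNA3.1- (3 libraries). The other group received the same plasmid carrying ppk1, a bacterial gene for polyphosphate kinase (3 libraries), whose product joins phosphate into long chains. Both groups were harvested 48 hours later, and the libraries lettered B, C and D form matched biological pairs. Transient transfection leaves a mixture of cells with and without plasmid, and the share of each was not analysed here. The level of the ppk1 transcript itself was not analysed here. In such bulk samples, fewer cells with a transcript and less of it per cell cannot be told apart.

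Multiciliated cells of the airway, the brain ventricles and the oviduct make their cilia in a fixed order. GEMC1 (gene GMNC) and multicilin (MCIDAS) act with E2F4 or E2F5 to switch the programme on, CCNO and the deuterosome proteins help to multiply the centrioles that become basal bodies, and TP73, MYB and RFX2 or RFX3 act on the way to FOXJ1. FOXJ1 and the RFX factors then bind the promoters of genes for the axoneme and for transport inside the cilium. RFX factors recognise the X-box, a site made of inverted arms. HEK293T cells can form a single primary cilium and are not multiciliated cells.

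Promoters of 8 of the 10 genes were present in a RefSeq table (build GRCh38.p14) that gives 250 bases before and 50 after each annotated start, and FOXJ1 and RFX2 were not among them. The first window of CCNO, MCIDAS, TP73 and MYB is shown because these 4 are the members in which letters of an E2F site were found, and because CCNO holds the only full X-box match in the members' windows. Capitals mark the X-box, the single RFX arm GTTGCC (also part of the X-box match) and the E2F sites TTTGGCG or TTTCGCG, on either strand. Each runs 5′ to 3′ along the gene's own strand.

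CCNO (chr5:55233559-55233858, minus strand): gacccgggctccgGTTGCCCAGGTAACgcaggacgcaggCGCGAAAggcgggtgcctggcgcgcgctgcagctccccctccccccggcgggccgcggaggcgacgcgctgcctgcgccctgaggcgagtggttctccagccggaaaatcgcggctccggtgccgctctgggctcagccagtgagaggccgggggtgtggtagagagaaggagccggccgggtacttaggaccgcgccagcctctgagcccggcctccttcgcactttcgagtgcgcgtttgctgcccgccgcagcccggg
MCIDAS (chr5:55227266-55227565, minus strand): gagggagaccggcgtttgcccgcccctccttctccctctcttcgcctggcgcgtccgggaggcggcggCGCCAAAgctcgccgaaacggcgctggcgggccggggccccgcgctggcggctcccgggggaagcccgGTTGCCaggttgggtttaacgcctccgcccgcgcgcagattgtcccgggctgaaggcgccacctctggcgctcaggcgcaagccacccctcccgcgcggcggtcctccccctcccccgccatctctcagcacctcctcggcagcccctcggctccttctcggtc
TP73 (chr1:3652266-3652565, plus strand): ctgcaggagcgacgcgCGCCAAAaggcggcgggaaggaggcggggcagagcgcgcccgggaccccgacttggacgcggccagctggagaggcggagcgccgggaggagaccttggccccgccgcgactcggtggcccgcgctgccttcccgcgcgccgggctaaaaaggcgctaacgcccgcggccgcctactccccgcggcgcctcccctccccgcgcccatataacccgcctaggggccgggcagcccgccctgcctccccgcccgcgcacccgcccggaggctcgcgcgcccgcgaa
MYB (chr6:135181058-135181357, plus strand): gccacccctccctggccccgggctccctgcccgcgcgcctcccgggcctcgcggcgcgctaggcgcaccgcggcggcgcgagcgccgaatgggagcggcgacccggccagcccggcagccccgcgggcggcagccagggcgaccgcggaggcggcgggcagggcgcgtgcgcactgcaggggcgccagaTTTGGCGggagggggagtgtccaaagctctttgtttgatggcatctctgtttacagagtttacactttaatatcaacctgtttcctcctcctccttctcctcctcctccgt

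In CCNO the match GTTGCCCAGGTAAC began at position -237 from the annotated start. It consists of the arms GTNNCC and GGNNAC, and the search allowed 0 to 3 bases between them. Such a match was found in 3.87% of 35116 promoter windows of the same length. MCIDAS held the arm GTTGCC alone, at -114, as did RFX1 (at 1) and the first window of RFX7 (at -94). This arm was found in 12.2% of all windows. The E2F letters stood at -211 in CCNO, -182 in MCIDAS, -234 in TP73 and -61 in MYB, against 3.19% of all windows. None of the windows of RFX1, RFX3, RFX5 and RFX7 held them. The forkhead core TGTTTA was found in MYB (at -14) and in the second window of RFX3 (at -213), and in 12.3% of all windows. Letters of an EGR site (GCGTGGG or GCGGGGG) were found in windows of RFX1, RFX5, MCIDAS and TP73, and in 22.0% of all windows. These matches describe letters only, and binding was not measured in these samples.

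FOXJ1 was the least abundant of the 10 in the empty vector libraries, and RFX5 the most abundant. Per kilobase of annotated exon (GENCODE release 29), RFX5 stood at 27.7 ± 0.013 CPM (counts scaled to the library total; mean ± SD, n = 3). RFX1 (4.85 ± 0.786), RFX7 (4.41 ± 0.188) and CCNO (3.65 ± 0.646) followed on the same per-kilobase scale, with ranges that overlapped one another. MCIDAS had 2.61 ± 0.058 CPM per kilobase, below the lowest CCNO library and above the highest TP73 library. TP73 (2.26 ± 0.269) and RFX2 (2.18 ± 0.129) did not differ beyond their spread. MYB (1.86 ± 0.064) and RFX3 (1.60 ± 0.035) came next, each with a range apart from its neighbours. FOXJ1 stood at 0.174 ± 0.044 CPM per kilobase. The middle ranks depend on the exon length used, whose error the SD does not cover. In CPM not divided by length, RFX2 (19.8) and RFX3 (17.9) stood above MYB (10.2), CCNO (6.60) and MCIDAS (5.45) in the empty vector libraries. MCIDAS, CCNO, TP73 and MYB were thus detected with between 225 and 1154 counts in every library, in cells where FOXJ1 had at most 24.

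In edgeR's quasi-likelihood test over 19574 genes, with the pair letter in the model, 3 of the 10 regulators were called lower with ppk1 at an adjusted p below 0.05 and 0 were called higher. Among all tested genes 9.08% were called, 5.04% lower and 4.04% higher. The 3 were FOXJ1 (ENSG00000129654), RFX2 (ENSG00000087903) and RFX3 (ENSG00000080298). FOXJ1 passed the filter on low counts (a minimum of 10 in at least 3 libraries, scaled to depth) only through the empty vector group, where it is higher, so its place among the 3 supports nothing about the members as a group. The median log2 fold change of the 10 genes was -0.02, beside 0.01 over all tested genes. At an unadjusted p below 0.05, 2 members were higher (RFX1 and TP73), against 12.2% of all tested genes, and DESeq2 also called 0 members higher (2.11% of the genes it adjusted) and 2 lower, RFX2 and RFX3 (2.7%). Without the pair letter in the model the same 3 were called lower, against 1.95% of all tested genes, and without pair C 2 were, FOXJ1 and RFX3, against 1.64%. Without pair B, 3 were called lower (6.03% of all genes tested there) and 2 higher, RFX1 and TP73 (6.5%). All 3 ppk1 libraries lay below all 3 empty vector libraries for 4 members (FOXJ1, RFX2, RFX3 and RFX5) and above them for 1 (TP73). Among all tested genes these shares were 12.6% and 13.0%.

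**Figure D1:**
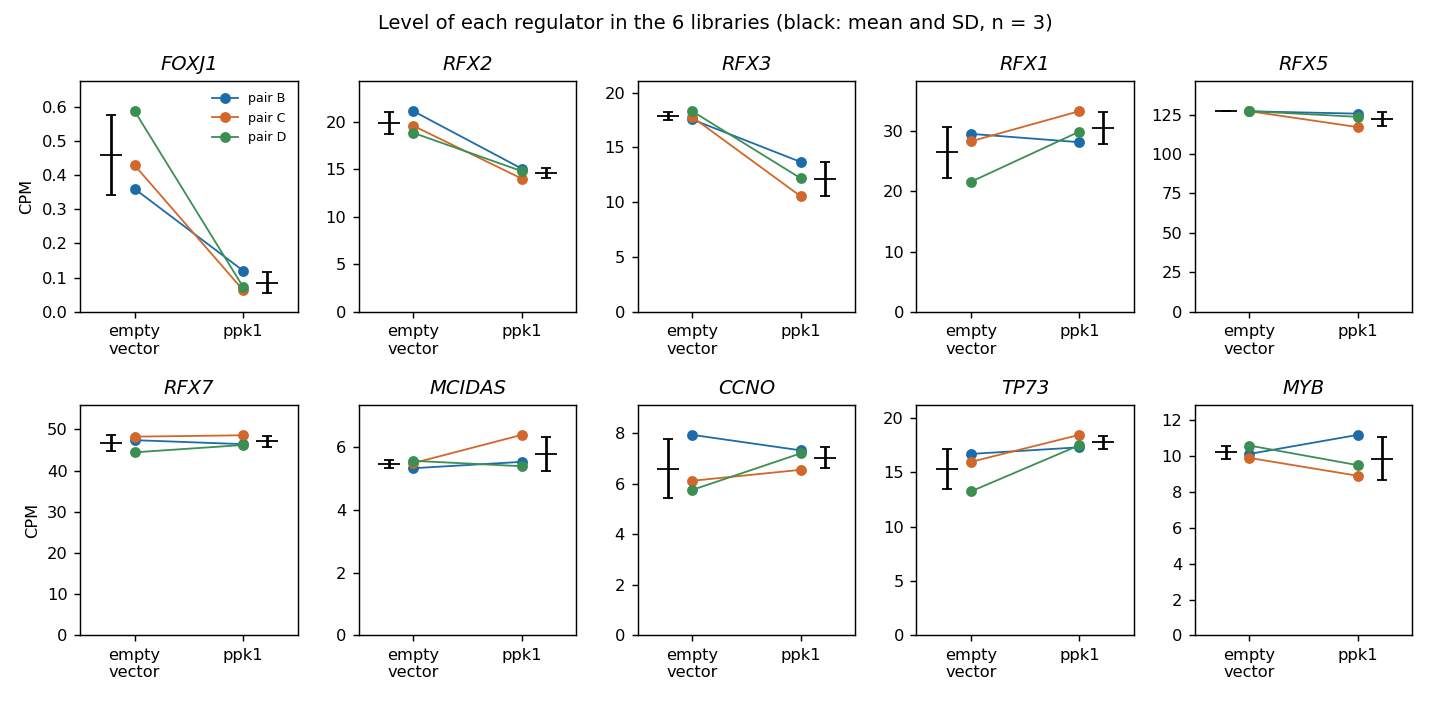
CPM of each regulator in the empty vector and ppk1 libraries, with lines joining matched pairs, black bars giving mean and SD (n = 3) and every vertical axis starting at 0. FOXJ1, RFX2, RFX3 and, by little, RFX5 lie lower with ppk1 in all 3 pairs, TP73 lies higher in all 3, and the lines of RFX1, RFX7, MCIDAS, CCNO and MYB run in both directions.

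FOXJ1 encodes the forkhead factor on which motile cilia depend. It had 19, 19 and 24 counts in empty vector libraries B, C and D and 8, 3 and 3 counts in ppk1 libraries B, C and D. All 3 ppk1 libraries lay below all 3 empty vector libraries, although in each pair the ppk1 library held more counts in total over all genes. On the scale of TMM-adjusted CPM the level was 0.459 ± 0.117 with the empty vector and 0.0847 ± 0.031 with ppk1 (mean ± SD, n = 3). FOXJ1 fell by 2.29 on the log2 scale (SE 0.42, edgeR adjusted p 0.000119). By pair, the difference was -1.32 in B, -2.18 in C and -2.48 in D. A gene that enters the test through the higher group alone had to differ to some degree, and FOXJ1 is such a gene. With no filter on low counts its value was -2.29 as well (edgeR adjusted p 5.7e-06). That fit uses the same counts of a gene chosen with earlier results known, so it adds no support. Few counts stand behind the value of -2.29. Over the summed counts, 62 against 14, the ppk1 level was 19.9% of the empty vector level, with an exact 95% interval of 10.3 to 36.0% that covers counting error only. In pair B alone it was 33.3% (12.6 to 79.6%), in pair C 14.6% (2.77 to 49.6%) and in pair D 12.2% (2.36 to 40.2%). DESeq2 gave FOXJ1 no adjusted p (unadjusted p 0.00137).

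Exons of FOXJ1 and of the antisense gene RNF157-AS1 overlap by 9 bases. RNF157-AS1 had between 14 and 29 counts in every library and was fitted at -0.32 on the log2 scale (SE 0.30, edgeR adjusted p 0.55). Whether the counting used the strand is not given in the sources used here.

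Over the 15101 genes whose mean normalized count reached 50, the levels (log2 CPM over the 6 libraries) most like those of FOXJ1 were found for TMEM55A (Pearson's r 0.997), ZNF596 (0.996) and ZNF221 (0.994). All 6 points of each correlation fall into the same 2 groups, and 773 of the 15101 genes had an r above 0.9. TMEM55A fell by 0.41, ZNF596 by 0.60 and ZNF221 by 0.72 on the log2 scale in the same fit, beside 2.29 for FOXJ1 (edgeR adjusted p 0.0155, 0.00269 and 0.00228).

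RFX2 and RFX3 are the RFX factors best known for work on motile cilia. RFX3 had 927, 788 and 748 counts in the empty vector libraries B, C and D and 913, 505 and 509 in the ppk1 libraries. Scaled to depth, these were 17.6, 17.8 and 18.3 CPM against 13.7, 10.5 and 12.2 CPM. The groups did not overlap, and the empty vector libraries lay much closer together than the ppk1 libraries. RFX3 fell by 0.56 on the log2 scale (SE 0.09, edgeR adjusted p 1.5e-05), to 67.7% of the empty vector level in the fit. The pair differences were -0.36 (B), -0.75 (C) and -0.59 (D).

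RFX3-AS1, named as the antisense gene of RFX3, had 113, 62 and 62 counts with the empty vector and 92, 49 and 44 with ppk1. Its log2 fold change was -0.55 (SE 0.18, edgeR adjusted p 0.0465), beside -0.56 for RFX3. No exon of another gene overlaps an RFX3 exon in GENCODE release 29. RFX3-AS1 was chosen for mention once its values were known.

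RFX2 had 1115, 867 and 769 counts in the empty vector libraries B, C and D and 1005, 671 and 618 in the ppk1 libraries. The levels were 21.1, 19.6 and 18.8 CPM against 15.0, 14.0 and 14.8 CPM, again without overlap. RFX2 fell by 0.44 on the log2 scale (SE 0.08, edgeR adjusted p 0.000288), to 73.6% of the empty vector level. Its pair differences, -0.49, -0.48 and -0.35, were closer to each other than those of RFX3. The call was lost when pair C was left out (adjusted p 0.056, log2 fold change -0.42). RFX2 exons overlap those of AC011471.1 on the same strand, which had 0 counts in all 6 libraries, and of ACSBG2 on the opposite strand, which had at most 6. AC011471.4, also on the opposite strand, was not analysed here.

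**Figure D2:**
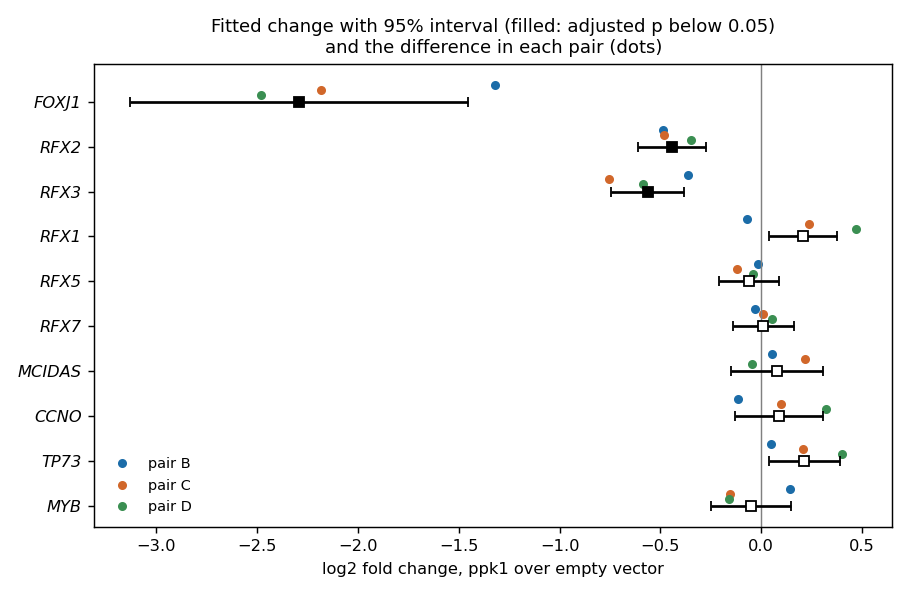
Log2 fold change of each regulator, ppk1 over empty vector, from the fit over all genes, with its 95% interval (not adjusted for the number of genes) as a bar, filled squares for an adjusted p below 0.05 and coloured dots for pairs B, C and D. FOXJ1 at -2.29 lies far to the left of RFX3 (-0.56) and RFX2 (-0.44), and the other 7 lie between -0.06 and 0.22.

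RFX1, RFX5 and RFX7 did not pass the test over all 6 libraries. RFX1, a broadly expressed member of the family, had 29.6, 28.3 and 21.6 CPM in the empty vector libraries B, C and D and 28.2, 33.4 and 30.0 CPM in the ppk1 libraries. The groups overlapped, and empty vector library D was the lowest of the 6. Its log2 fold change was 0.21 (SE 0.08, edgeR adjusted p 0.11), with -0.07, 0.24 and 0.47 in pairs B, C and D. Without pair B it was 0.35, with an adjusted p of 0.00462.

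RFX5 is the DNA-binding subunit of the complex that drives MHC class II genes. It had between 127.1 and 127.2 CPM in the empty vector libraries and 126, 117 and 124 CPM in ppk1 libraries B, C and D. All 3 ppk1 values were lower, but the log2 fold change was -0.06 (SE 0.07, edgeR adjusted p 0.67, 95% interval -0.21 to 0.09). RFX7 had 47.4, 48.2 and 44.4 CPM against 46.4, 48.6 and 46.2 CPM, with overlapping groups. Its log2 fold change was 0.01 (SE 0.07, edgeR adjusted p 0.95, 95% interval -0.14 to 0.16). The intervals of RFX5 and RFX7 do not reach the values fitted for RFX2 and RFX3. Genes on the other strand overlap exons of RFX1 (at most 18 counts in any library) and RFX5 (at most 105).

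The proportions between family members within a library do not depend on the scaling between libraries. For each RFX1 count there were 0.593, 0.628 and 0.848 RFX3 counts in empty vector libraries B, C and D, and 0.485, 0.316 and 0.407 in the ppk1 libraries. The ratio was lower with ppk1 in each pair, least so in pair B. The ratio of RFX2 to RFX1 counts was 0.714, 0.691 and 0.872 against 0.534, 0.420 and 0.494, and these groups did not overlap either. RFX1 itself differed by -0.07, 0.24 and 0.47 (log2) in pairs B, C and D. In pairs C and D, part of the fall of both ratios therefore comes from RFX1. How often ratios of other genes fail to overlap was not tested. The ratio of RFX5 to RFX7 counts was 2.68, 2.64 and 2.86 against 2.71, 2.41 and 2.67, with overlap. Of the summed per-kilobase level of the 5 RFX genes, RFX3 held 3.79, 3.86 and 4.14% with the empty vector and 3.07, 2.44 and 2.76% with ppk1, while RFX5 held between 66.0 and 70.1% in all 6 libraries.

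**Figure D3:**
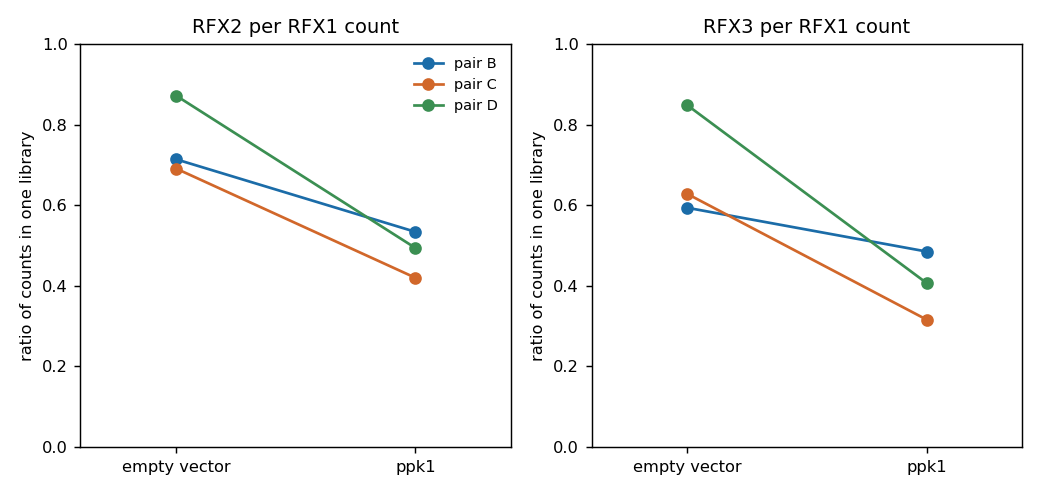
Ratio of RFX2 to RFX1 counts (left) and of RFX3 to RFX1 counts (right) within each library, with lines joining the matched pairs. All 6 lines run lower on the ppk1 side, and the shortest step is that of RFX3 in pair B, from 0.593 to 0.485. RFX1 was itself higher with ppk1 in pairs C and D, which adds to the steps there.

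MCIDAS, CCNO, TP73 and MYB did not pass the test over all 6 libraries in either direction. MCIDAS, the multicilin gene, had 281, 243 and 227 counts with the empty vector and 369, 306 and 225 with ppk1. Its level was 5.45 ± 0.12 and 5.76 ± 0.54 CPM (mean ± SD, n = 3), with overlapping groups. The log2 fold change was 0.08 (SE 0.11, edgeR adjusted p 0.73, 95% interval -0.15 to 0.31).

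CCNO, which lies beside MCIDAS on chromosome 5 and whose promoter carries the X-box match shown above, had 419, 271 and 235 counts with the empty vector and 489, 314 and 301 with ppk1. The level of 6.60 ± 1.17 CPM with the empty vector overlapped that of 7.03 ± 0.41 CPM with ppk1. Its log2 fold change was 0.09 (SE 0.11, edgeR adjusted p 0.67), with -0.12, 0.10 and 0.32 in the 3 pairs and a 95% interval of -0.13 to 0.31. In the same stretch of the chromosome GPX8 (0.05), DHX29 (-0.05) and MTREX (0.04, log2 fold changes) did not pass either. CDC20B, next beyond GPX8 and part of the same multiciliation locus, had 18, 11 and 11 counts against 11, 9 and 5. All 3 of its ppk1 libraries lay below the empty vector libraries, as they did for 12.6% of all tested genes. CDC20B was fitted at -0.86 on the log2 scale (SE 0.40, edgeR adjusted p 0.17). Like FOXJ1, it passed the filter on low counts only through the empty vector group, so its values support nothing about the locus.

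TP73, whose longer protein form acts in multiciliated cells, had 16.7, 15.9 and 13.2 CPM in the empty vector libraries and 17.3, 18.4 and 17.5 CPM with ppk1. All 3 ppk1 libraries lay above all 3 empty vector libraries, as they did for 13.0% of all tested genes, and empty vector library D was the lowest. TP73 did not pass the test, with 0.22 on the log2 scale and an SE of 0.09 (edgeR adjusted p 0.12). Without pair B it was 0.30, with an adjusted p of 0.039. Counts per gene do not tell the forms that start at its different promoters apart. TP73 shares 633 exon bases with TP73-AS1 on the other strand, which had 2341 to 4684 counts per library, so TP73 is uncertain if the counting ignored the strand. TP73-AS1 stood at 0.08 in the fit (log2, edgeR adjusted p 0.56).

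MYB, which acts in progenitors of multiciliated cells as well as in blood cells, had 10.1, 9.91 and 10.6 CPM against 11.2, 8.91 and 9.50 CPM. The ppk1 libraries lay on both sides of the empty vector libraries. The log2 fold change was -0.05 (SE 0.10, edgeR adjusted p 0.81, 95% interval -0.25 to 0.15), positive in pair B (0.14) and negative in C (-0.15) and D (-0.16).

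The genes that work with these regulators were taken from lists of known function. Of 10 partners of the multiciliation switch, 8 were tested and 0 were called. Among them E2F4 (log2 fold change 0.13), E2F5 (0.05), TFDP1 (0.17) and geminin (GMNN, -0.06), the inhibitor related to multicilin, had edgeR adjusted p-values between 0.14 and 0.71. GMNC had 1 to 8 counts per library and DEUP1, a deuterosome gene, at most 3, and both were below the filter and not tested. Of 11 centriole duplication genes, 1 was called, CEP63, which fell by 0.28 (SE 0.08, edgeR adjusted p 0.0156). The list's median was -0.09, and among all tested genes 9.08% were called.

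Of 9 paralogs of the members, 6 were tested and 0 were called, beside 9.08% of all tested genes. RFX6 was fitted at -0.15 (log2), FOXJ2 0.06, FOXJ3 -0.10, MYBL1 0.03 and MYBL2 0.08. The paralogs RFX4, RFX8 and TP63 had at most 5 counts in any library. Of 11 RFX5 partners and MHC class II genes, 8 were tested and 0 called (median 0.11), again beside 9.08% of all tested genes. CIITA, which RFX5 needs at these promoters, had 2 to 8 counts per library. Values of the HLA genes are uncertain because these genes resemble each other.

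Of 12 genes described as RFX7 targets, 1 was called, beside 9.08% of all tested genes. ARRDC3, an arrestin-domain gene, fell by 0.80 (SE 0.08, edgeR adjusted p 2.0e-10), from 35.9 ± 4.41 to 20.5 ± 2.05 CPM (mean ± SD, n = 3). The median log2 fold change of the 12 was 0.01, and the others ran in both directions without a call. Those fitted lower were ABAT (-0.22), SESN3 (-0.20), PIK3IP1 (-0.20), PNRC1 (-0.20) and IP6K2 (-0.05). Those fitted higher were MXD4 (0.19), TSPYL1 (0.13), PIK3R3 (0.09), PDCD4 (0.08), TOB1 (0.07) and TSPYL2 (0.07). Among 9 Notch pathway genes, which restrain multiciliation, 1 was called, HES5, again beside 9.08% of all tested genes. HES5 fell by 1.23 (SE 0.25, edgeR adjusted p 0.000718) from 62, 41 and 32 counts to 32, 20 and 14. HES1 (-0.20), HEY1 (0.04), DLL1 (-0.11) and NOTCH1 (-0.15) were not called.

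Of 26 motile cilium genes described as FOXJ1 or RFX targets, 23 were tested, 5 were called lower and 0 higher, with a median log2 fold change of -0.40. Among all tested genes 5.04% were called lower and 4.04% higher, with a median of 0.01. Earlier results on motile cilium genes from these libraries were known, so the count of 5 is not independent evidence. The 4 with the smallest adjusted p were CFAP43 (-1.30), DNAAF1 (-1.09), CFAP53 (-1.04) and CCDC65 (-0.78, log2 fold changes), and DNAI1 (-0.79) was the fifth. Those not called ran from -0.65 (RSPH1) to 0.56 (RSPH9). DNAH11 (-0.03), TEKT2 (0.0018) and TPPP3 (-0.04) lay between them. Of 15 primary cilium genes described as RFX targets, IFT88 (-0.30) and TMEM67 (-0.24) were called lower and BBS5 (0.33) higher, with edgeR adjusted p-values of 0.0238, 0.0369 and 0.0297 and a list median of -0.09. If the counting ignored the strand, values of DNAAF1, CCDC65, CEP63, ARRDC3, TMEM55A, ZNF596 and KRT18 are uncertain, since exons of other genes lie opposite theirs in GENCODE release 29. Regardless of strand, BBS5 and ZNF596 share exon bases with a gene on the same strand.

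**Figure D4:**
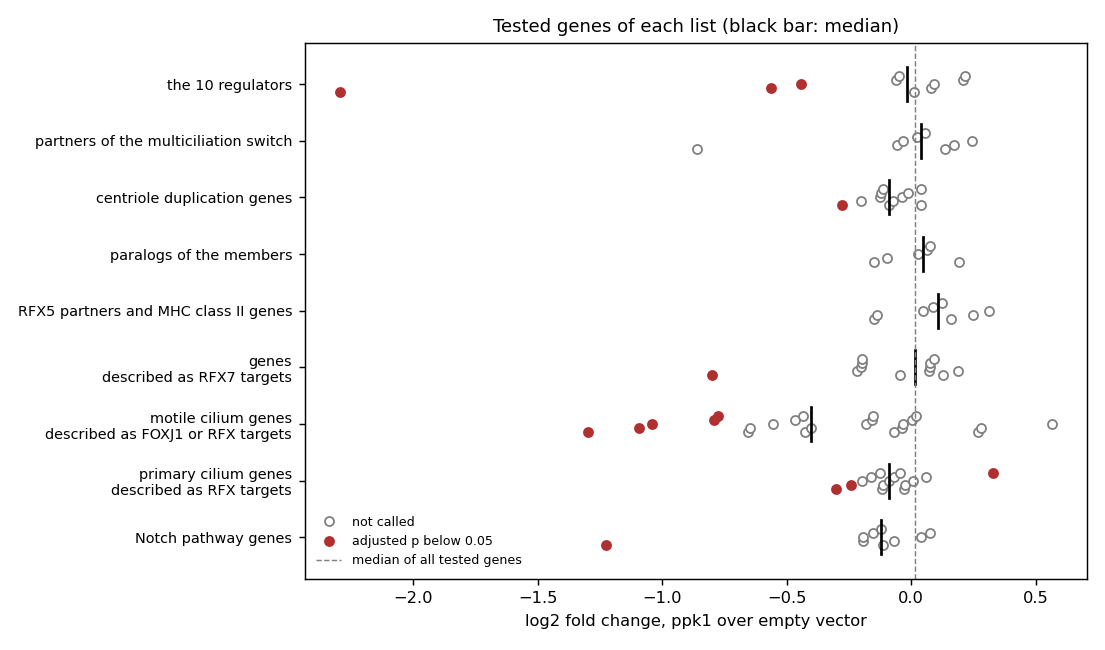
Log2 fold change, ppk1 over empty vector, of the tested genes in each list (points spread vertically for clarity), red where the adjusted p is below 0.05, with a black bar at each list's median and a dashed line at the median of all tested genes. The motile cilium targets have a median of -0.40, and the medians of the other lists lie between -0.12 and 0.11.

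The libraries held between 40851783 and 67122986 counts. The 11 markers of multiciliated cells summed to 17.7 to 22.2 CPM in the empty vector libraries and 19.5 to 21.7 CPM in the ppk1 libraries, mostly from CCDC78, CAPS and TPPP3, and SNTN had at most 1 count in any library. FOXJ1 (log2 fold change -2.29) and DNAI1 (-0.79) belong to this list and were its called genes. The sum hides the less abundant markers. CDC20B (-0.86), RSPH1 (-0.65), DNAH5 (-0.56) and PIFO (-0.47) were also fitted lower, from few counts and without a call. CCDC78 (0.24) and CAPS (0.20) were fitted higher and TPPP3 at -0.04, none of them called. The epithelial genes KRT8, KRT18, EPCAM and CDH1 summed to 69.9 to 75.9 CPM with the empty vector and 80.8 to 83.1 CPM with ppk1. Of this list KRT18 was called (log2 fold change 0.28), and its part in the results above was not tested. Markers of leukocytes stayed between 1.76 and 2.75 CPM in sum, with CD3E at 0 counts in 5 of the 6 libraries, and those of fibroblasts between 19.3 and 24.3 CPM. Of 3 hepatocyte markers, which summed to 0.928 to 1.20 CPM with the empty vector and 0.501 to 0.646 CPM with ppk1, ALB fell by 1.37 on the log2 scale (edgeR adjusted p 0.00261), and its part in the results above was not tested.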

How the data were processed

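Poly(A)-selected RNA of 6 HEK293T libraries was sequenced, 3 per group. The authors deposited 1 table of counts with 58051 genes; its values are whole numbers and were used as raw read counts. The submitters' processing notes list bcl2fastq 2.20, Trimmomatic, STAR, HTSeq, edgeR, DESeq, Cufflinks and Cuffdiff without saying which made the table. The genome build, annotation and use of the strand are not given in the sources used here.

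All genes were fitted together with edgeR 4.0.16 in R 4.3.3 (glmQLFit and glmQLFTest, default settings) after filterByExpr (minimum count 10) and TMM scaling. The pair letter was a block because the design text of the series calls libraries of a letter matched. After the group means were removed, the 2 libraries of a letter correlated at 0.109 (B), 0.135 (C) and 0.0476 (D) across genes, against -0.12 to -0.00506 between letters. Benjamini-Hochberg adjustment ran over 19574 genes (threshold 0.05). Standard errors are the fold change divided by the root of F, and 95% intervals use the fit's degrees of freedom. CPM are counts scaled to the TMM-adjusted library total; pair differences use log2 CPM with a prior count of 2. GENCODE 29 held 57447 of the identifiers and gave exon lengths and overlaps.

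The 10 members and all lists were chosen with earlier results of these data known. The text names all 10 members, up to 4 called genes per list and any called in the opposite direction, the chromosome neighbours of MCIDAS and CCNO and the 3 genes most like FOXJ1; other genes were named after their values were seen. 1 gene of the lists is not reported here. Alternatives were no block, RLE and upper-quartile scaling, DESeq2 1.42.0, 2 other filters, thinning, robust dispersion and leaving out each pair.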

Additional observations from a re-analysis of the deposited data

How the results depend on the processing

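Of 108 fold changes of the 10 genes under 11 alternatives, 101 kept direction and call. The 3 members called lower were FOXJ1, RFX2 and RFX3, and FOXJ1 and RFX3 stayed below an adjusted p of 0.05 in every alternative that gave one, with no replicate block included (FOXJ1 -2.31, RFX3 -0.56 and RFX2 -0.44, adjusted p 0.00755, 0.0115 and 0.015). FOXJ1 was not tested with a mean of at least 50 counts and had no adjusted p in DESeq2. The alternatives reuse the same few FOXJ1 counts, and FOXJ1 passed the main filter only through the empty vector group. Its repeated calls therefore add no support. Leaving out a pair moved FOXJ1 from -2.86 (without B) to -2.03 (without D). The members called higher ran from 0 to 2 when each pair was left out in turn, the 2 being RFX1 and TP73 without B, where 6.5% of all tested genes were called higher. Values near 0 changed sign: RFX7 with upper-quartile scaling (-0.0103), and, when a pair was left out, RFX7 (-0.0313 without D to 0.0321 without B), MYB (-0.157 without B to 0.00021 without C) and CCNO (-0.0383 without D to 0.209 without B). Of all tested genes 1777 were called, 470 with no replicate block (the paired letters ignored), 757 by DESeq2, and 406 (without C) to 2435 (without B) when a pair was left out. The causes were not tested. Depth limits FOXJ1 most: 3 counts correspond to 0.0447 to 0.0734 CPM, near its ppk1 level.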
